A study of Mus musculus with 20 samples.

Results

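The 43 genes described here encode the machinery that starts and extends protein chains and that loads amino acids onto transfer RNA. They comprise 26 translation factors and their regulators and 17 cytosolic aminoacyl-tRNA synthetases, out of 19505 genes measured on Clariom S arrays in mouse Tregs, the regulatory T cells that hold back immune responses. The members were taken from a list of 30 genes given by name, of which 26 had a named probe set, and from all gene symbols of the form used for cytosolic synthetases (the letter of an amino acid followed by ars, with or without a closing 1, a or b). The rule itself uses no measured value, although it was set with earlier results of these data known. Eif2s1, Eif4a2, Eif4g1 and Eif5 of the named list, and the synthetase genes Aars and Dars, were not analysed here. The synthetase gene Eprs was measured, but its symbol lacks this form. It was counted with the further translation factors and synthetase partners, not with the members. Each member was represented by 1 probe set. On all 20 arrays 41 of the members had a signal above the median of the array, while Lars did so on 18 arrays and Eif3a on 10.

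The cells came from C57BL/6 mice by bead enrichment for CD4 and a sort for CD25+CD4+, and 1 array was hybridised per sample. The Rheb experiment held 4 groups of 3 arrays, namely stimulated Rheb1/2 KO Tregs, stimulated WT Tregs, unstimulated Rheb1/2 KO Tregs and unstimulated WT Tregs. The Rag experiment held 4 groups of 2 arrays, namely RagAB KO Tregs stimulated for 8 h, WT Tregs stimulated for 8 h, unstimulated RagAB KO Tregs and unstimulated WT Tregs. The genotypes are called Rheb KO and Rag KO below, and each experiment had WT arrays of its own. The sources used here give neither the stimulus nor its length in the Rheb experiment, nor the age of the animals or the promoter behind any recombinase. They also do not say that samples of a group are separate animals, and the p-values below therefore reflect the spread among these samples alone, which may be technical. For 6 arrays of the Rheb experiment (unstimulated Rheb KO and stimulated WT) the treatment entry says the reverse of title and source name, and the titles were followed.

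Translation starts when eIF2 brings the initiator transfer RNA to the small ribosomal subunit and the eIF4 proteins bring the messenger RNA by its cap. The factor eIF2B recharges eIF2 with GTP, eIF3 organises the complex, and eIF5B joins the large subunit, after which the eEF1 and eEF2 proteins drive elongation. Aminoacyl-tRNA synthetases attach each amino acid to its transfer RNA, and several of them sit in a multi-synthetase complex. Both Rheb and Rag proteins belong to the small GTPases and switch on the kinase complex mTORC1 in response to growth signals and amino acids. mTORC1 signalling is known to free the cap-binding protein eIF4E from its inhibitors, to inactivate the elongation kinase eEF2K, to mark the inhibitor PDCD4 for degradation, and to raise the transcription factor ATF4, which binds synthetase genes. These actions are mostly on proteins, whereas arrays measure transcript levels.

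Promoter sequences are shown first, because ATF4 and its partners bind a short element known as CARE (TGATGCAA) and Myc, which rises in activated T cells, binds the E-box CACGTG. RefSeq promoters of the build GRCm38.p6, running from 250 bases before to 50 bases after the start of the gene, were matched by symbol or gene ID to 29 of the 43 members (38 promoters, since some genes have several starts), and both strands were searched. The 14 members without a promoter to search were Eif1a, Eif2b3, Eif4g2, Eif6, Eef1d, Eef1g, Pabpc1, Cars, Hars, Lars, Nars, Rars, Vars and Wars. The CARE letters stood in 3 of 10 synthetase promoters, those of Iars, Tars and Yars, in 0 of 28 promoters of factors and regulators, and in 0.895% of all 32851 promoters of this length. The E-box letters stood in 12 of 38 member promoters and in 7.15% of all promoters. Of these 12, 3 belonged to Eif5a, and 2 of the Eif5a promoters overlap and share the same E-box. The STAT motif GAS (TTCNNNGAA) stood in 5 of 38 member promoters, against 8.3% of all promoters. No match overlapped a match of another motif. These matches describe letters and do not show binding. The stretches below run 5′ to 3′ on the strand of the gene from base -80 to base 15 around its start, with CARE letters (TGATGCAA or its reverse complement) and the E-box in capitals. They are those of the 3 synthetases with CARE letters, of Farsb, and of 2 factors whose transcripts changed on stimulation, Eif4e and Eef2.
Iars (chr13:49682050-49682144, plus strand, CARE and E-box): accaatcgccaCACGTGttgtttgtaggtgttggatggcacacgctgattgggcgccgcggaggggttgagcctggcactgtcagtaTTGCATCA
Tars (chr15:11399644-11399738, minus strand, CARE): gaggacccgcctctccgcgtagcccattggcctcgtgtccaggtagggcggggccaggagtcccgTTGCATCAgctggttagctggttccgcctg
Yars (chr4:129189823-129189917, plus strand, CARE): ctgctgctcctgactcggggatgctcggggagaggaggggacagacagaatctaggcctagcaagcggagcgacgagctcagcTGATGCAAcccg
Farsb (chr1:78488883-78488977, minus strand, E-box): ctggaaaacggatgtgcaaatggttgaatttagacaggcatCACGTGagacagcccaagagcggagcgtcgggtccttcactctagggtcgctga
Eif4e (chr3:138527188-138527282, plus strand, E-box): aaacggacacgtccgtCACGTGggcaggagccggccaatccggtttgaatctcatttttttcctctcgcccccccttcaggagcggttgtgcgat
Eef2 (chr10:81176551-81176645, plus strand, E-box): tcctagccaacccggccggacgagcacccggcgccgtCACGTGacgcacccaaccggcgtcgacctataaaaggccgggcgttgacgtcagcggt

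Of these 3 synthetases with CARE letters, only Iars passed the test for stimulation, in both genotypes of the Rheb experiment. Tars changed by 0.38 and 0.26 and Yars by 0.12 and 0.12 log2 in Rheb KO and WT Tregs, and neither was called. Wars, Cars and Vars, synthetases also called in that experiment, had no promoter to search. Array medians of the log2 signal were 7.67 to 7.77 in the Rheb experiment and 7.18 to 7.55 in the Rag experiment, the lowest being those of unstimulated WT array 2 (7.18) and unstimulated Rag KO array 1 (7.29). As a check of the labels, Rheb changed by -0.88 log2 in unstimulated (adjusted p = 0.0413) and by -0.93 in stimulated Rheb KO arrays (adjusted p = 0.0278), and Rraga by -2.43 (adjusted p = 0.00266) and -2.18 (adjusted p = 0.00448) in the Rag KO arrays. Rhebl1 (-0.38 and -0.76) and Rragb (-0.08 and -0.22) were not called. The position of their probes relative to the deleted parts is not given in the sources used here. Of 10 Treg marker genes 8 were measured and at least 7 of them lay above the array median on every array; Foxp3 was not analysed here.

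Markers of Tregs and of other cell types differed between some groups, given as summed linear signals over a list. Macrophage markers (10 of 12 measured) summed to 2471 to 2605 in unstimulated Rheb KO arrays, against 1830 to 1865 in unstimulated WT arrays. Dendritic cell markers (11 of 12) summed to 4490 to 4812 in unstimulated Rheb KO against 3169 to 3335 in unstimulated WT arrays, and to 3571 to 4345 in unstimulated Rag KO against 1420 to 2219 in their WT arrays. Stimulated Rheb KO arrays had lower sums than unstimulated ones for macrophages (1140 to 1181) and dendritic cells (2291 to 2459). So did stimulated WT arrays of that experiment (1174 to 1361 and 1962 to 2265). Natural killer cell sums were also lower in Rheb KO (1526 to 1763 against 2206 to 2453) and WT (1135 to 1195 against 1635 to 2055). CD4 T cell sums were lower in Rheb KO (20460 to 21636 against 25116 to 25359) and WT (22888 to 23571 against 26685 to 27441). Treg sums were higher with stimulation in Rheb KO (25116 to 25921 against 19191 to 20992) and WT (26497 to 26824 against 22917 to 23059). CD8 T cell sums were lower in Rheb KO (586 to 684 against 736 to 785) and overlapped in WT. Neutrophil markers (6 of 7) stood apart on array 2 of both Rag KO groups, with sums of 6628 without and 4900 with stimulation, against 583 to 1732 on all other Rag experiment arrays. RMA signals hold no zeros, so no marker was at 0. The part of these marker differences in the results below was not tested.

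In the Rheb experiment, stimulated Tregs of both genotypes had more transcript of 3 synthetases (Iars, Mars1 and Wars) and of the initiation factor Eif1a, and less of the synthetase Vars, the elongation factor Eef2 and the translation inhibitor Pdcd4. The limma test called 11 of the 43 members (25.6%) in Rheb KO Tregs, 8 higher and 3 lower, and 7 (16.3%) in WT Tregs, 4 higher and 3 lower. Of all genes 9.75% were called in Rheb KO (4.55% higher, 5.19% lower) and 9.37% in WT Tregs (4.49% higher, 4.89% lower). All 7 members called in WT Tregs were among the 11 called in Rheb KO Tregs. Over the 43 members the median change was 0.12 log2 in Rheb KO and 0.16 in WT Tregs, against -0.01 and 0.02 over all genes. Levels and changes below are log2 signals and log2 differences, errors of changes are standard errors (SE), and called means an adjusted p below 0.05 over all 19505 genes. A lower signal in these bulk samples can mean less transcript per cell or fewer cells that carry it, which cannot be told apart.

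**Figure D1:**
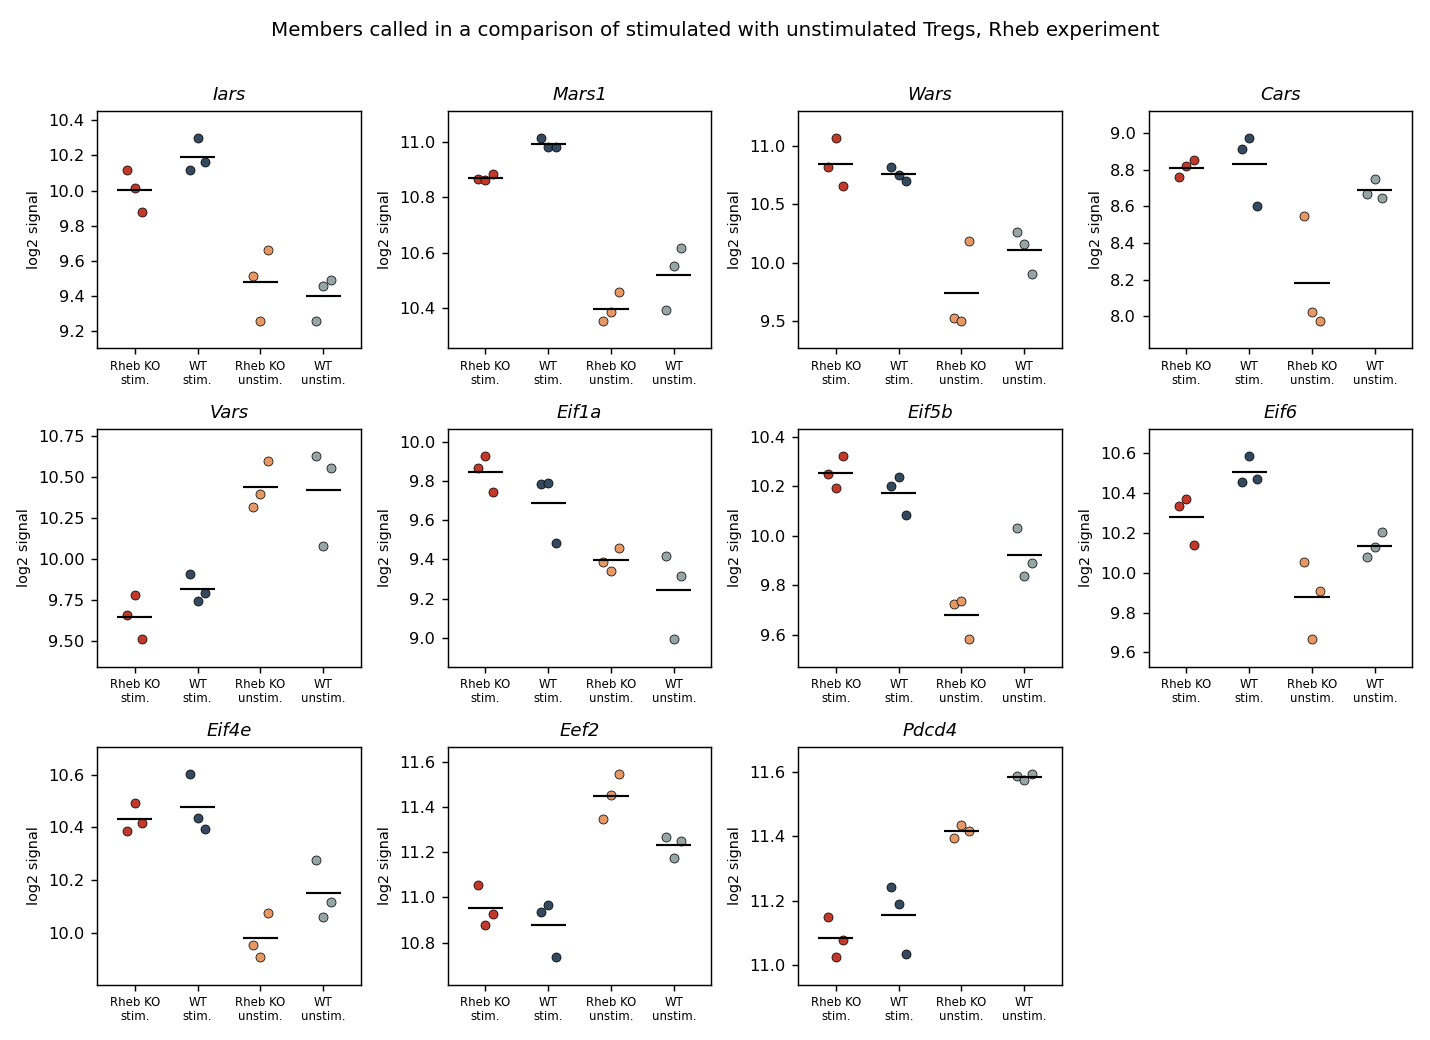
Log2 signal (vertical axis, a separate scale for each gene) of the 11 members called in a comparison of stimulated with unstimulated Tregs of the Rheb experiment, by group (horizontal axis). Points are single arrays (n = 3 per group) and horizontal lines are group means; in each genotype the stimulated mean is above the unstimulated one in 8 panels and below it in those of Vars, Eef2 and Pdcd4.

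Iars, the isoleucyl-tRNA synthetase, read 10.11, 10.01 and 9.88 in stimulated Rheb KO arrays, against 9.51, 9.26 and 9.66 in unstimulated Rheb KO arrays. It read 10.12, 10.30 and 10.16 in stimulated WT arrays, against 9.26, 9.45 and 9.49 in unstimulated WT arrays. In both genotypes every stimulated array was above every unstimulated one. Iars rose 1.44-fold in Rheb KO Tregs (0.53 ± 0.12, adjusted p = 0.0119) and 1.73-fold in WT Tregs (0.79 ± 0.12, adjusted p = 0.000919). The call in Rheb KO ended without unstimulated Rheb KO array 2 (0.42) or stimulated Rheb KO array 1 (0.47).

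Mars1, the methionyl-tRNA synthetase, which also charges the initiator transfer RNA, read 10.86, 10.86 and 10.88 in stimulated Rheb KO arrays against 10.35, 10.38 and 10.46 in unstimulated ones. In WT Tregs it read 11.01, 10.98 and 10.98 with stimulation against 10.39, 10.55 and 10.62 without. The stimulated arrays of each genotype lay close together and clear of the unstimulated ones. It rose by 0.47 ± 0.09 in both genotypes (adjusted p = 0.0033 in Rheb KO and 0.00373 in WT Tregs), and both calls held without any 1 array.

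Wars, the tryptophanyl-tRNA synthetase, which interferons also induce, had the largest change of any member in Rheb KO Tregs. It read 10.82, 11.07 and 10.66 in stimulated Rheb KO arrays against 9.52, 9.50 and 10.19 in unstimulated ones, and 10.82, 10.75 and 10.70 in stimulated WT arrays against 10.26, 10.16 and 9.90 in unstimulated ones. The groups did not overlap, although 1 unstimulated Rheb KO array was about as high as the unstimulated WT arrays. Wars rose 2.16-fold in Rheb KO Tregs (1.11 ± 0.17, adjusted p = 0.000938) and 1.56-fold in WT Tregs (0.65 ± 0.17, adjusted p = 0.0315). The WT call ended without unstimulated WT array 2 (0.67) or 3 (0.54) and without stimulated WT array 1 (0.61), 2 (0.65) or 3 (0.68).

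Cars, the cysteinyl-tRNA synthetase, was called in Rheb KO Tregs alone. It read 8.76, 8.82 and 8.85 in stimulated Rheb KO arrays against 8.54, 8.03 and 7.97 in unstimulated ones, and 8.91, 8.97 and 8.60 in stimulated WT arrays against 8.67, 8.75 and 8.65 in unstimulated ones. The WT groups overlapped and the Rheb KO groups did not. Cars rose by 0.63 ± 0.14 in Rheb KO Tregs (adjusted p = 0.0124), a call that ended without unstimulated Rheb KO array 2 (0.55) or 3 (0.52), and its change in WT Tregs was 0.14. The difference between these responses was 0.49 ± 0.20 and was not called (adjusted p = 0.781).

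Vars, the valyl-tRNA synthetase, ran the other way. It read 9.66, 9.78 and 9.51 in stimulated Rheb KO arrays against 10.32, 10.40 and 10.60 in unstimulated ones, and 9.91, 9.74 and 9.79 in stimulated WT arrays against 10.62, 10.08 and 10.56 in unstimulated ones. All stimulated arrays were below all unstimulated arrays. Vars fell by 0.79 ± 0.14 in Rheb KO Tregs (adjusted p = 0.00249), which is 1.73-fold, and by 0.61 ± 0.14 in WT Tregs (adjusted p = 0.0149), which is 1.52-fold. The WT call ended without unstimulated WT array 1 (-0.50) or 3 (-0.54) or stimulated WT array 2 (-0.57). Among the 17 synthetases 11 changes lay above 0 in Rheb KO and 13 in WT Tregs, with medians of 0.14 and 0.16, and those not named as called stayed between -0.31 and 0.38 in Rheb KO and between -0.26 and 0.33 in WT Tregs.

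The 3 factors of start site selection, subunit joining and 60S handling all had positive changes. Eif1a, which with its partners scans for the start codon, read 9.87, 9.93 and 9.75 in stimulated Rheb KO arrays against 9.39, 9.34 and 9.46 in unstimulated ones, and 9.79, 9.79 and 9.48 in stimulated WT arrays against 9.42, 8.99 and 9.32 in unstimulated ones. It rose by 0.45 ± 0.12 in Rheb KO (adjusted p = 0.0348) and by 0.44 ± 0.12 in WT Tregs (adjusted p = 0.0394), with no overlap of arrays in either. Both calls were near the threshold: the one in Rheb KO ended without any 1 of the 6 Rheb KO arrays (0.41 to 0.50). The one in WT Tregs ended without 8 of the 12 arrays of the fit in turn (0.32 to 0.48), namely unstimulated WT arrays 2 and 3, stimulated WT arrays 1 and 2 and arrays 1 and 2 of each Rheb KO group.

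Eif5b, the GTPase that joins the ribosomal subunits, read 10.25, 10.19 and 10.32 in stimulated Rheb KO arrays against 9.72, 9.74 and 9.58 in unstimulated ones, and 10.20, 10.24 and 10.08 in stimulated WT arrays against 10.03, 9.84 and 9.89 in unstimulated ones. The groups did not overlap in either genotype. It rose by 0.57 ± 0.09 in Rheb KO Tregs (adjusted p = 0.00147), without any 1 array as well, and its change in WT Tregs was 0.25. Eif6, which keeps the large subunit from joining too early, rose by 0.40 ± 0.11 in Rheb KO Tregs (adjusted p = 0.0344) and its change in WT Tregs was 0.37 ± 0.11 (adjusted p = 0.0558). The Eif6 call in Rheb KO ended without unstimulated Rheb KO array 2 (0.30) or 3 (0.42) or stimulated Rheb KO array 1 (0.38) or 2 (0.36).

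Among the eIF4 proteins only Eif4e was called. Eif4e, the cap-binding protein, read 10.39, 10.49 and 10.42 in stimulated Rheb KO arrays against 9.95, 9.91 and 10.08 in unstimulated ones, and 10.60, 10.44 and 10.39 in stimulated WT arrays against 10.28, 10.06 and 10.12 in unstimulated ones. Again the groups did not overlap in either genotype. It rose by 0.45 ± 0.10 in Rheb KO Tregs (adjusted p = 0.00905), and its change in WT Tregs was 0.33 ± 0.10 (adjusted p = 0.0546). The helicase Eif4a1 changed by -0.50 ± 0.18 in Rheb KO (adjusted p = 0.105) and by -0.25 ± 0.18 in WT Tregs (adjusted p = 0.48). The 6 members of the eIF4 group, which includes the poly(A)-binding protein gene Pabpc1, had median changes of 0.02 in Rheb KO and -0.04 in WT Tregs.

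No member of eIF2, eIF2B or eIF3 was called. The 6 ternary complex genes (Eif2s2, a subunit of eIF2, and Eif2b1 to Eif2b5, the subunits of eIF2B) changed by -0.24 to 0.21 in Rheb KO and by -0.24 to 0.52 in WT Tregs. Largest in WT Tregs were the changes of Eif2b3 (0.52 ± 0.23, adjusted p = 0.223) and Eif2b1 (0.50 ± 0.15, adjusted p = 0.0568). The 4 eIF3 subunit genes changed by 0.08 to 0.39 in Rheb KO and by -0.09 to 0.22 in WT Tregs.

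Eef2, the factor that moves the ribosome along the messenger RNA, read 11.06, 10.88 and 10.93 in stimulated Rheb KO arrays against 11.35, 11.46 and 11.54 in unstimulated ones, and 10.94, 10.97 and 10.73 in stimulated WT arrays against 11.27, 11.18 and 11.25 in unstimulated ones. All stimulated arrays were below all unstimulated arrays. Eef2 fell by 0.50 ± 0.10 in Rheb KO Tregs (adjusted p = 0.00523) and by 0.35 ± 0.10 in WT Tregs (adjusted p = 0.0396). The call in Rheb KO held without any 1 array. The call in WT Tregs ended without any 1 of the 6 WT arrays, without unstimulated or stimulated Rheb KO array 2, and without stimulated Rheb KO array 3 (-0.40 to -0.28). The other elongation genes were not called: the changes of Eef1d, Eef1g and Eif5a lay between -0.23 and 0.12 in Rheb KO and between -0.19 and 0.12 in WT Tregs.

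Pdcd4, which blocks the helicase eIF4A, read 11.15, 11.02 and 11.08 in stimulated Rheb KO arrays against 11.40, 11.44 and 11.42 in unstimulated ones, and 11.24, 11.19 and 11.03 in stimulated WT arrays against 11.59, 11.58 and 11.59 in unstimulated ones. No stimulated array reached the level of an unstimulated one. Pdcd4 fell by 0.33 ± 0.09 in Rheb KO Tregs (adjusted p = 0.0279) and by 0.43 ± 0.09 in WT Tregs (adjusted p = 0.00682). The WT call held without any 1 array, and the Rheb KO call ended without any 1 unstimulated Rheb KO array or stimulated Rheb KO array 2 or 3 (-0.34 to -0.30). Eef2k, the kinase that inhibits eEF2, changed by -0.45 ± 0.21 (adjusted p = 0.251) and -0.40 ± 0.21 (adjusted p = 0.323) in Rheb KO and WT Tregs, and Larp1, which represses messages of ribosomal proteins, by 0.12 and 0.21.

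Whether Rheb loss altered these responses was tested as an interaction, the response of Rheb KO minus that of WT Tregs. The limma test called 0 of 43 members and 0% of all genes, with 3 members and 6.19% of all genes at an unadjusted p under 0.05. The 3 largest differences were those of Eif2b1 (-0.56 ± 0.21, adjusted p = 0.737), Cars (0.49 ± 0.20) and Wars (0.47 ± 0.24). The 4 members called in Rheb KO Tregs alone differed between genotypes by 0.13 (Eif4e), 0.32 (Eif5b), 0.04 (Eif6) and 0.49 (Cars), so a larger response in Rheb KO was not shown for any of them.

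**Figure D2:**
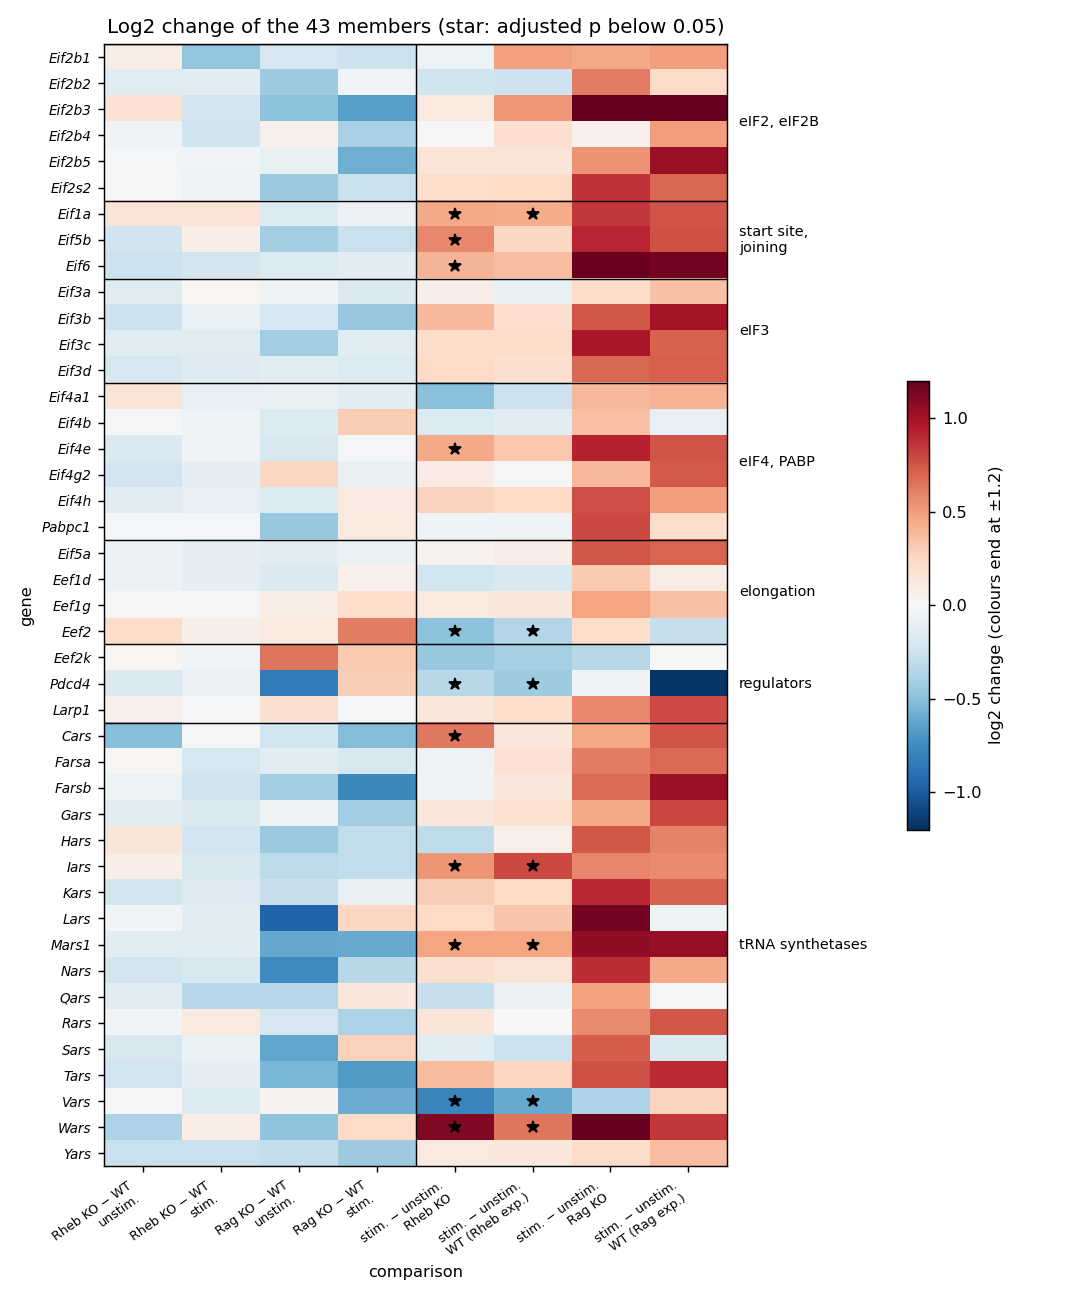
Log2 change of each of the 43 members (rows, grouped by role) in 8 comparisons (columns, 4 between genotypes and 4 between stimulated and unstimulated Tregs), from blue (lower) through white to red (higher), with colours ending at 1.2 log2 either way. Stars mark an adjusted p below 0.05 and stand only in the 2 stimulation columns of the Rheb experiment, 11 in Rheb KO and 7 in WT Tregs.

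Between genotypes in the Rheb experiment no member passed the test. In unstimulated Tregs limma called 0 of 43 members against 0.508% of all genes, and at an unadjusted p under 0.05 there were 8 members (18.6%) against 10.2% of all genes. In stimulated Tregs it called 0 members against 0.543% of all genes, with 3 members (6.98%) against 9.25% at an unadjusted p under 0.05. Changes were small and mostly below 0, as 11 of 43 lay above 0 without stimulation (median -0.07, all genes 0.02) and 6 of 43 with it (median -0.11, all genes -0.01). The standard errors of the members in this experiment ranged from 0.0801 to 0.235.

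Cars had the largest difference in unstimulated Tregs, at 8.54, 8.03 and 7.97 in Rheb KO arrays, against 8.67, 8.75 and 8.65 in WT arrays. All 3 Rheb KO arrays were below all WT arrays, and 2 of them well below. The change was -0.51 ± 0.14, and it was not called (adjusted p = 0.184); without unstimulated Rheb KO array 1 it was -0.69 and was called (adjusted p = 0.0434). Wars (-0.37 ± 0.17, adjusted p = 0.489) and Yars, the tyrosyl-tRNA synthetase (-0.26 ± 0.15, adjusted p = 0.613), followed. The macrophage, dendritic and natural killer cell marker sums were higher in these Rheb KO arrays, the last at 2206 to 2453 against 1635 to 2055 in WT arrays. Treg marker sums were lower in these Rheb KO arrays, at 19191 to 20992 against 22917 to 23059 in WT arrays. Sums were also lower for CD4 T cells (25116 to 25359 against 26685 to 27441) and CD8 T cells (736 to 785 against 818 to 1003). The part of these differences in the result was not tested.

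In stimulated Tregs the largest difference was that of Eif2b1, which encodes the alpha subunit of eIF2B. It read 9.36, 9.41 and 9.18 in Rheb KO arrays, against 9.79, 9.76 and 9.81 in WT arrays. The groups did not overlap and the WT arrays were close together. The change was -0.47 ± 0.15 (adjusted p = 0.297), and it was -0.52 to -0.40 without any 1 array. Qars, the glutaminyl-tRNA synthetase (-0.34 ± 0.16, adjusted p = 0.549), and Yars (-0.27 ± 0.15, adjusted p = 0.662) came next. Without 1 array Qars ran from -0.45 to -0.14 (the smaller without stimulated Rheb KO array 3) and Yars from -0.37 to -0.14 (the smaller without stimulated WT array 2). All 6 eIF2 and eIF2B changes were below 0, with a median of -0.18, but none was called. Marker sums also differed between these groups. Natural killer cell markers summed to 1526 to 1763 in stimulated Rheb KO against 1135 to 1195 in stimulated WT arrays. In the same order, CD8 T cell markers summed to 586 to 684 against 824 to 925, and CD4 T cell markers to 20460 to 21636 against 22888 to 23571. Treg markers summed to 25116 to 25921 against 26497 to 26824, and dendritic cell markers to 2291 to 2459 against 1962 to 2265. Their part in the result was not tested.

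Arrays of the genotypes did not overlap for 10 members without stimulation, 1 higher (Eef2) and 9 lower, where 7.62% of all genes were higher and 7.08% lower in this way. With stimulation, 1 member was higher (Rars) and 11 lower, against 6.75% and 8.8% of all genes. The median change of the 17 synthetases was -0.13 in unstimulated and -0.16 in stimulated Tregs, with 4 and 2 of them above 0. Among regulators, Pdcd4 changed by -0.17 ± 0.09 in unstimulated Tregs (11.40, 11.44 and 11.42 in Rheb KO arrays against 11.59, 11.58 and 11.59 in WT arrays) and by -0.07 ± 0.09 in stimulated Tregs. The unstimulated arrays did not overlap, yet the adjusted p was 0.558. Eef2k changed by 0.02 and -0.03 and Larp1 by 0.06 and -0.03, each within 1 standard error of 0.

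In the Rag experiment, stimulation for 8 h came with higher signals of most members, but with 2 arrays a group none passed the test. The limma test called 0 of 43 members in Rag KO and in WT Tregs, against 1.32% and 1% of all genes. At an unadjusted p under 0.05 there were 25 members (58.1%) in Rag KO and 24 (55.8%) in WT Tregs, against 14.4% and 15% of all genes. Of the 43 changes 40 lay above 0 in Rag KO and 37 in WT Tregs, with medians of 0.62 and 0.68, where the medians of all genes were 0.09 and 0.21. Every stimulated array was above every unstimulated array for 34 members in Rag KO and 31 in WT Tregs, against 31.9% and 37.3% of all genes, and below for 1 and 2 members, against 13.8% and 10.1%.

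The arrays of lowest median signal were both unstimulated, and the size of these medians moved with scaling. After a second quantile normalization, which brought the median of all genes to -0.03 in Rag KO and 0.04 in WT Tregs, the medians of the members were 0.27 and 0.46, with 34 and 35 of 43 above 0. Without unstimulated Rag KO array 1 and unstimulated WT array 2 they were 0.37 and 0.35, with 36 and 31 above 0. Each unstimulated group then held 1 array. The median of all genes in that fit is not given here, so an excess over all genes cannot be read from these values.

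**Figure D3:**
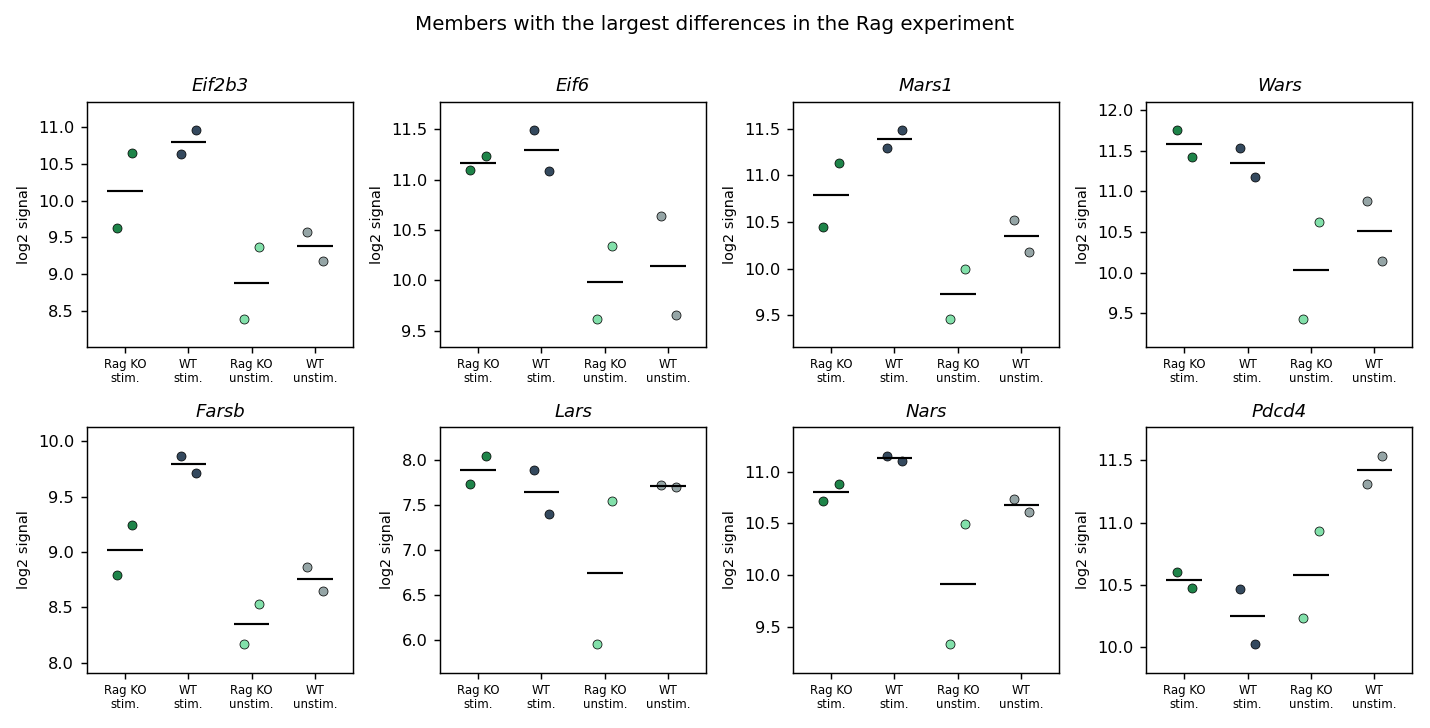
Log2 signal (vertical axis, a separate scale for each gene) of 8 members with large differences in the Rag experiment, by group (horizontal axis). Points are single arrays (n = 2 per group) and lines are group means; for Lars and Nars, unstimulated Rag KO array 1 lies far below its fellow array.

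Eif2b3, which encodes the gamma subunit of eIF2B, had the largest change in WT Tregs. It read 9.62 and 10.65 in stimulated Rag KO arrays against 8.39 and 9.37 in unstimulated ones, and 10.63 and 10.96 in stimulated WT arrays against 9.57 and 9.18 in unstimulated ones. Stimulated arrays were above unstimulated ones in both genotypes, but the Rag KO arrays of either state were far apart. The changes were 1.26 ± 0.37 in Rag KO (adjusted p = 0.116) and 1.42 ± 0.37 in WT Tregs (adjusted p = 0.0961).

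Eif6 read 11.09 and 11.23 in stimulated Rag KO arrays against 9.62 and 10.34 in unstimulated ones, and 11.49 and 11.09 in stimulated WT arrays against 10.63 and 9.66 in unstimulated ones. Its changes were 1.18 ± 0.33 (adjusted p = 0.104) and 1.15 ± 0.33 (adjusted p = 0.139) in Rag KO and WT Tregs, with no overlap in either. Wars had the largest change in Rag KO Tregs, where it read 11.75 and 11.42 with stimulation against 9.44 and 10.62 without. In WT Tregs it read 11.53 and 11.18 with stimulation against 10.88 and 10.14 without. The groups did not overlap, and the changes were 1.56 ± 0.36 in Rag KO (adjusted p = 0.0554) and 0.85 ± 0.36 in WT Tregs (adjusted p = 0.308).

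Pdcd4 read 10.61 and 10.47 in stimulated Rag KO arrays against 10.23 and 10.93 in unstimulated ones, and 10.47 and 10.02 in stimulated WT arrays against 11.31 and 11.54 in unstimulated ones. The Rag KO groups overlapped and the WT groups did not. The changes were -0.04 in Rag KO and -1.18 ± 0.28 in WT Tregs (adjusted p = 0.0699), and the difference between them was 1.13 ± 0.39 (adjusted p = 0.728). Without 1 array the change of Wars in Rag KO ran from 0.96 to 2.15 and that of Eif2b3 from 0.74 to 1.77. Leaving out an array of the Rag experiment leaves 1 array in its group, which is then assumed to vary like the other groups, since they supply the spread. Without Rag KO arrays numbered 2, whose neutrophil marker sums were high, 4 members were called for Rag KO and 7 for WT Tregs, against 3.43% and 3.33% of all genes. Without unstimulated Rag KO array 2 alone, 16 were called for Rag KO, all higher, against 9.99% of all genes, in a fit where array 1, of low signal, was the only unstimulated Rag KO array. Without either unstimulated Rag KO array in turn, 7 were called for WT Tregs, against 3.08% of all genes each time.

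The 11 members called in the Rheb experiment can be set beside their values in the Rag experiment, which has its own controls. Iars changed by 0.58 in Rag KO and 0.57 in WT Tregs, Mars1 by 1.06 and 1.04, Cars by 0.47 and 0.76. Eif1a changed by 0.85 and 0.76, Eif4e by 0.92 and 0.75 and Eif5b by 0.91 and 0.76. With Wars and Eif6, all 8 members that rose in the Rheb experiment had changes above 0 in both genotypes here. So did most genes: 93.0% of the 43 members and 61.9% of all genes lay above 0 in Rag KO Tregs. In WT Tregs these shares were 86.0% and 73.1%, so the shared direction of the 8 is little beyond that of the members at large. The 3 that fell did not run alike, since Vars changed by -0.37 and 0.27, Eef2 by 0.21 and -0.28 and Pdcd4 by -0.04 and -1.18 in Rag KO and WT Tregs. None of these values was called in the Rag experiment.

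The interaction of the Rag experiment was called for 0 members and 0% of all genes, with 3 members and 6.16% of all genes at an unadjusted p under 0.05. The largest differences were those of Lars, the leucyl-tRNA synthetase (1.21 ± 0.56, adjusted p = 0.728), Pdcd4 (1.13) and Sars, the seryl-tRNA synthetase (0.90 ± 0.38, adjusted p = 0.728). The Lars difference rests on unstimulated Rag KO array 1: without array 2 of that group it was 2.01 and called (adjusted p = 0.019, with 1 array in that group), and without array 1 it was 0.41.

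Between genotypes in the Rag experiment no member passed the test, and with all arrays most changes were below 0. In unstimulated Tregs limma called 0 of 43 members against 0.113% of all genes, and in stimulated Tregs 0 of 43 against 0.103%. At an unadjusted p under 0.05 there were 7 members (16.3%) without and 4 (9.3%) with stimulation, against 6.66% and 5.07% of all genes. Without stimulation 7 of 43 changes lay above 0 (median -0.20, all genes 0.03), and with it 12 of 43 (median -0.15, all genes -0.05). The unstimulated direction rests on Rag KO array 1, one of the arrays of lowest signal: without it 24 of 43 changes lay above 0 and the median was 0.06, against 0.11 over all genes. Without unstimulated WT array 1, 17 lay above 0 (median -0.03), and without any other single array 1 to 7 did. Standard errors of the members ranged from 0.221 to 0.395, with a median of 0.271, where that of the Rheb experiment was 0.111.

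The synthetases lay mostly below 0 in both states. Without stimulation 1 of 17 lay above 0, with a median of -0.34, but 6 of 17 did without unstimulated Rag KO array 1 and 4 without unstimulated WT array 1. With stimulation it was 4 of 17, with a median of -0.33. Every Rag KO array was below every WT array for 8 of the 17 in unstimulated and 10 of the 17 in stimulated Tregs, against 12.5% and 26.2% of all genes. The 26 factors and regulators had medians of -0.16 and -0.09. No synthetase was called, and no test set the synthetases against other genes. Dendritic cell marker sums were also higher in the stimulated Rag KO arrays (3385 to 3528) than in their WT arrays (1939 to 2026). So were sums for natural killer cells (2894 to 3111 against 1758 to 2605) and CD8 T cells (897 to 935 against 674 to 772). Without stimulation, natural killer cell sums were 3740 to 4280 in Rag KO against 1997 to 3714 in WT arrays. The part of these differences was not tested.

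**Figure D4:**
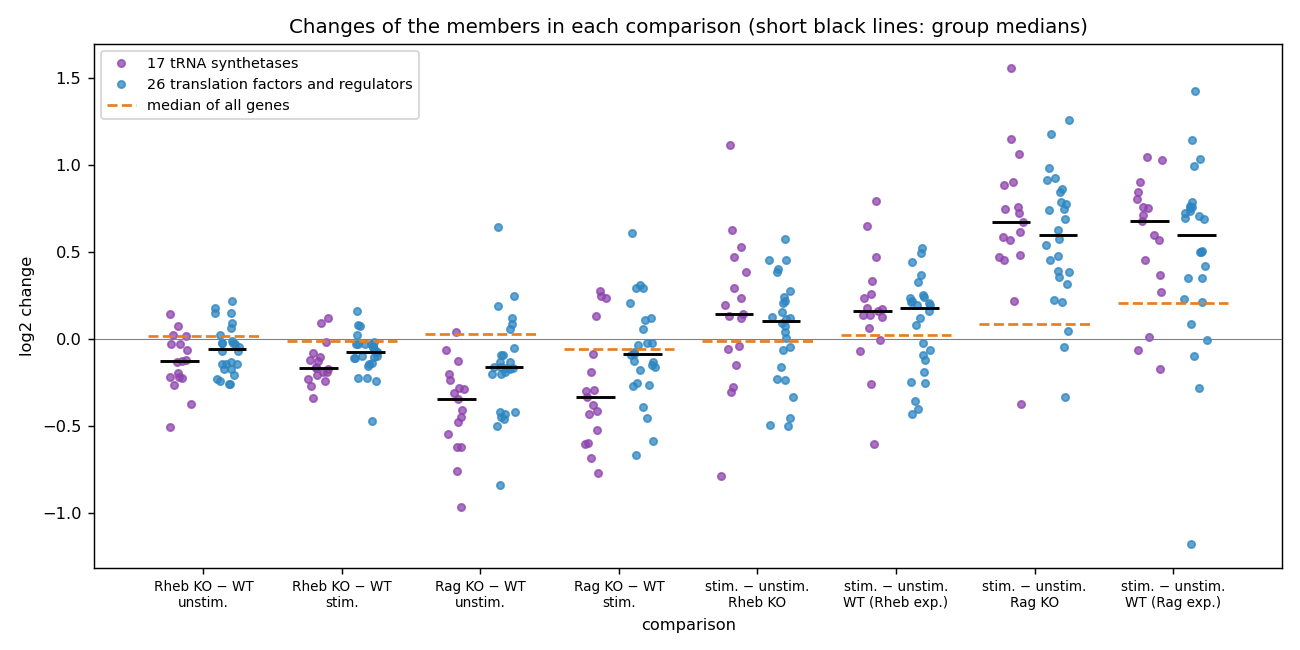
Log2 change (vertical axis) of the 17 synthetases (purple) and the 26 factors and regulators (blue) in 8 comparisons (horizontal axis). Each point is 1 gene, short black lines are medians of the points and dashed orange lines are medians of all 19505 genes; the synthetase median is -0.34 and -0.33 in the Rag KO comparisons and 0.67 and 0.68 in the stimulation comparisons of the Rag experiment.

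Lars had the lowest change in unstimulated Tregs, at 5.95 and 7.54 in Rag KO arrays, against 7.72 and 7.70 in WT arrays. Array 1 of Rag KO was far below the other 3, and array 2 only slightly below the WT arrays. The change was -0.96 ± 0.40 (adjusted p = 0.702), and it was -0.17 without Rag KO array 1 and -1.76 without Rag KO array 2, which was called (adjusted p = 0.00619) in a fit with 1 Rag KO array in the group and the spread of the other groups. Nars, the asparaginyl-tRNA synthetase, had the same order, at 9.33 and 10.50 in Rag KO arrays against 10.74 and 10.61 in WT arrays. Its change was -0.76 ± 0.32 (adjusted p = 0.703), and it was -0.18 without Rag KO array 1 and -1.34 and called (adjusted p = 0.019) without Rag KO array 2.

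Pdcd4 read 10.23 and 10.93 in unstimulated Rag KO arrays, against 11.31 and 11.54 in unstimulated WT arrays. Both Rag KO arrays were below both WT arrays. The change was -0.84 ± 0.28 (adjusted p = 0.602), and it was -0.49 without Rag KO array 1 and -1.19 and called (adjusted p = 0.0419) without Rag KO array 2. With stimulation the change of Pdcd4 was 0.29 ± 0.28 (adjusted p = 0.947). Eef2k read 9.03 and 9.30 in unstimulated Rag KO arrays against 8.66 and 8.38 in WT arrays, a change of 0.64 ± 0.24 (adjusted p = 0.667), and its change was 0.31 ± 0.24 with stimulation. It was the member with the highest change in unstimulated Tregs, and its arrays did not overlap in either state. Larp1 changed by 0.19 ± 0.26 and -0.02 ± 0.26.

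In stimulated Tregs Farsb, the beta subunit of phenylalanyl-tRNA synthetase, had the lowest change. It read 8.80 and 9.24 in Rag KO arrays, against 9.87 and 9.71 in WT arrays, and the groups did not overlap. The change was -0.77 ± 0.25 (adjusted p = 0.584). Tars, the threonyl-tRNA synthetase, read 8.27 and 8.65 in Rag KO arrays against 9.12 and 9.16 in WT arrays (-0.68 ± 0.23, adjusted p = 0.664). Eif2b3 changed by -0.66 ± 0.37 (adjusted p = 0.947), with arrays that overlapped, and it was -0.15 without stimulated Rag KO array 1 and -1.18 without array 2. For eIF2 and eIF2B as a whole, all 6 eIF2 and eIF2B changes were below 0, with a median of -0.33. Eef2 had the highest change, at 11.61 and 11.42 in Rag KO arrays against 11.08 and 10.74 in WT arrays (0.61 ± 0.32, adjusted p = 0.947).

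The Rag KO effect minus the Rheb KO effect was tested in 1 fit of all 20 arrays, each effect being set against WT arrays of its own experiment. It was called for 0 members without and 0 with stimulation, against 0.0564% and 0.19% of all genes, and 2 (4.65%) and 4 (9.3%) members had an unadjusted p under 0.05, against 7.31% and 7.06% of all genes. Without stimulation the largest differences were those of Lars (-0.93 ± 0.39, adjusted p = 0.615), Eif2b3 (-0.67 ± 0.44) and Pdcd4 (-0.67 ± 0.25, adjusted p = 0.589), and with it those of Tars (-0.58 ± 0.23, adjusted p = 0.609), Eif2b5 (-0.55 ± 0.27) and Eef2 (0.54 ± 0.30). Without unstimulated Rag KO array 1, the differences without stimulation were -0.14 for Lars, -0.18 for Eif2b3 and -0.32 for Pdcd4. Without unstimulated Rag KO array 2 they were -1.73, -1.16 and -1.02, and 4 members were called (Pdcd4, Lars, Nars and Sars), against 4.47% of all genes, with 1 Rag KO array in the group and the spread of the other groups. Genotype effects that differ between the experiments were thus not shown for any member with all arrays in the fit.

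The 4 further lists of pathway genes were read against the shares of all genes called on stimulation. These were 9.75% in Rheb KO and 9.37% in WT Tregs of the Rheb experiment, and 1.32% in Rag KO and 1% in WT Tregs of the Rag experiment. Of 42 further translation factors and synthetase partners, limma called 1 higher and 1 lower in Rheb KO Tregs, the synthetase partner Aimp2 (0.43) and the inhibitor of poly(A)-binding protein Paip2b (-0.72). In WT Tregs it called 2 higher (Eef1e1 0.74, Paip1 0.51) and 3 lower (Eif3i -0.40, Mcts2 -0.46, Paip2b -0.48). These are 4.76% of the list in Rheb KO and 11.9% in WT Tregs. In the Rag experiment Eef1e1, which binds the multi-synthetase complex, rose by 1.25 ± 0.24 in WT Tregs (adjusted p = 0.0258), the single call of this list there.

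Among kinases and binding proteins that regulate translation, Ppp1r15a, which recruits the phosphatase that reactivates eIF2, fell by 2.05 ± 0.09 in Rheb KO and by 2.22 ± 0.09 in WT Tregs of the Rheb experiment. Of 16 such genes measured, 3 rose in Rheb KO Tregs (Eif2ak2 0.79, Larp1b 0.58, Larp4 0.54) and 3 in WT Tregs (Eif4ebp1 0.74, Larp4 0.64, Eif2ak2 0.45). Eif2ak2 encodes the RNA-activated eIF2 kinase PKR and Eif4ebp1 an inhibitor of eIF4E. In the Rag experiment limma called 0 of the 16. At an unadjusted p under 0.05 there were 5 (31.2%) in Rag KO and 2 (12.5%) in WT Tregs, against 14.4% and 15% of all genes.

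Of 16 mitochondrial synthetase genes, limma called 0 in Rheb KO Tregs, and in WT Tregs Yars2 rose (0.74) and Rars2 fell (-0.63). In Rheb KO Tregs 5 (31.2%) had an unadjusted p under 0.05, against 21.1% of all genes. Yars2 also rose in WT Tregs of the Rag experiment (1.26 ± 0.26, adjusted p = 0.0372). Of 25 measured genes for ATF4 and its targets, 3 rose in Rheb KO Tregs (the arginine transporter Slc7a1 0.74, the proline synthesis gene Aldh18a1 0.58, the serine enzyme Shmt2 0.48) and Atf3 fell (-0.68). In WT Tregs 4 rose (Slc7a1 0.77, the asparagine synthetase Asns 0.74, Aldh18a1 0.70, Shmt2 0.54) and 2 fell (Atf3 -0.92, Slc3a2 -0.33). In the Rag experiment Atf3, a stress-induced transcription factor, rose by 2.11 ± 0.28 in Rag KO and by 1.90 ± 0.28 in WT Tregs, opposite in sign to the Rheb experiment. Slc7a1 rose by 1.63 and 1.51 there. Between genotypes limma called 0 genes of these 4 lists in either experiment and state. Of all genes it called 0.508% in unstimulated and 0.543% in stimulated Rheb KO, and 0.113% and 0.103% in Rag KO. At an unadjusted p under 0.05 there were 0 to 5 genes of a list, which is 0% to 25% of it. For all genes these shares were 10.2% in unstimulated and 9.25% in stimulated Rheb KO, and 6.66% and 5.07% in Rag KO.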

How the data were processed

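Gene expression was measured on Clariom S arrays, 1 per sample, from amplified and biotin-labelled RNA, per the labels' protocols. The deposited values are log2 signals per probe set, which the authors made by RMA in Affymetrix Expression Console 1.1, per the submitters' processing notes. RMA scales arrays to each other and compresses differences of dim probe sets. Of 28846 probe sets 19572 had 1 gene symbol in the platform annotation; for the 55 genes with several, the probe set of highest mean signal was kept, which left 19505 genes. The number of arrays, 12 and 8, limits the precision.

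Groups follow sample titles. Each experiment was fitted apart with 1 mean per group (limma 3.58.1, R 4.3.3), and all 20 arrays together for the difference between the genotype effects. P-values are two-sided and Benjamini-Hochberg adjusted over all 19505 genes. The text names every called member, or the 3 largest changes of a comparison with none, and Pdcd4, Eef2k and Larp1 between genotypes. The members and gene lists were chosen with earlier results of these data known. No pair of arrays was a duplicate (highest correlation 0.993). The fits were run on simulated data with independent normal noise per gene and no effect shared by the genes of an array. Such data cannot show how the fits handle arrays of low signal or signal from other cells. The settings varied were quantile normalization on top of RMA, removal of the 40% of genes with the lowest mean, a trended and robust prior, a replicate block, and the omission of single arrays. Leaving out both Rag KO arrays numbered 2, or the 2 unstimulated Rag experiment arrays of lowest signal, was chosen after seeing the data.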

Additional observations from a re-analysis of the deposited data

How the results depend on the processing

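The direction of the changes in unstimulated Rag KO depended on array 1 of that group. The count of called members depended on the processing and on single arrays. For stimulation in WT Tregs of the Rheb experiment, where 7 were called, it was 12 after the filter on low signals, 13 with the trended and robust prior and 4 with the replicate block, when 18.2%, 11.7% and 8.18% of all genes were called (9.37% with the settings of the report), and 3 to 7 without any 1 array (6.48% to 9.24% of all genes). For Rheb KO Tregs, where 11 were called, it was 8 with the replicate block (8.64% of all genes) and 6 to 11 without any 1 array (6.95% to 10.3%). For stimulation in Rag KO Tregs, where 0 were called, it was 1 after a second quantile normalization (1.96% of all genes), 4 after the filter (4.52%), 2 with the trended prior (2.84%), 1 with the block (1.98%), 4 without both Rag KO arrays numbered 2 (3.43%), and 0 to 16 without any 1 array (0.231% to 9.99%). For WT Tregs of that experiment it was 5, 2, 1, 1 and 7 under the same settings (3.27%, 3.02%, 2.51%, 1.25% and 3.33% of all genes), 1 without the 2 arrays of lowest signal (2.9%), and 0 to 7 without any 1 array (0.0666% to 3.08%). Between genotypes, the range without any 1 array was 0 to 1 in unstimulated Rheb KO, the 1 being the call of Cars given above. The share of all genes called in that fit is not given here, so nothing about the members is read from this count. Between genotypes of the Rag experiment, counts without 1 array are left out, since a group there then holds 1 array. The stimulation counts without 1 array in that experiment have the same limit. Counts between genotypes under the other settings are not given here. The cause of these differences was not tested. The filter leaves fewer genes to adjust over, and leaving arrays out leaves fewer samples. In the Rheb experiment the replicate block ended the stimulation calls of Eif1a, Eef2 and Wars in WT Tregs. It also ended those of Eif1a, Eif6 and Pdcd4 in Rheb KO Tregs.

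Among the members named in a comparison, signs turned for Eef2k and Larp1 between genotypes. After the second quantile normalization Eef2k and Larp1 in stimulated Rheb KO were at 0.00445 and 0.0011, and Larp1 in unstimulated Rag KO was at -0.0137 without both arrays numbered 2. Without any 1 array Eef2k ran from -0.24 to 0.28 in unstimulated and from -0.15 to 0.0922 in stimulated Rheb KO, and Larp1 from -0.0849 to 0.0379 in stimulated Rheb KO and from -0.13 to 0.51 in unstimulated Rag KO. The number of members above 0 in unstimulated Rag KO, 7 with all arrays, was 12 after quantile normalization and 24 without Rag KO array 1, so members not named there turned as well. The replicate numbers were not taken as pairs. Deviations of same-numbered arrays correlated at -0.20 to 0.18 in the Rheb and -0.43 to 0.23 in the Rag experiment. These ranges include pairs of different genotype. Within a genotype the correlations were -0.18 to 0.12 in the Rheb experiment. In the Rag experiment they were 0.17 in Rag KO and 0.23 in WT Tregs, and both Rag KO arrays numbered 2 had high neutrophil marker sums. The replicate block was shared by both genotypes, so pairing within a genotype was not tested.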
